A study of Homo sapiens with 12 samples.

Results

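The 38 genes described here are ATF4, the central transcription factor of the integrated stress response, and genes known as targets of ATF4 or of its partner CHOP, together with the enzymes of amino acid synthesis and the amino acid transporters that belong to the same programme. They were picked by symbol from what is known of the pathway, and all 38 were present among the 17013 genes of the table. The mRNA-seq experiment used HCC1806, a human triple-negative breast cancer cell line. All 12 libraries came from transfected cells, 3 for each of 4 groups. Control cells received a non-targeting siRNA (siNT) and MLK4-depleted cells a pool of 4 siRNAs (siMLK4) against MLK4, the kinase encoded by MAP3K21. Beginning 24 h after transfection, cells of each kind were given 1 μM doxorubicin for 24 h or served as vehicle controls, so that the groups are siNT vehicle, siNT doxorubicin, siMLK4 vehicle and siMLK4 doxorubicin. Doxorubicin is an anthracycline that poisons topoisomerase II and breaks DNA. The vehicle cells are called DMSO-treated in the sample labels, untreated in the methods and time zero in the sample titles, while the study's text elsewhere describes DMSO and doxorubicin as parallel treatments. If the titles meant collection at the start of treatment, doxorubicin and 24 h of further culture could not be told apart. The 3 libraries of a group are transfections done in triplicate, with no statement that they came from separate cultures. The design therefore describes a single cell line, a single siRNA pool, a single dose and a single time.

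The integrated stress response starts when one of the eIF2α kinases, which sense amino acid shortage, unfolded protein, double-stranded RNA or heme deficiency, phosphorylates the translation factor eIF2α. General translation then slows while translation of ATF4 mRNA increases, and ATF4 protein, paired with other basic leucine zipper factors, turns on genes for amino acid synthesis and uptake, tRNA charging and redox control, as well as the factor CHOP (encoded by DDIT3) and the feedback genes that end the response. Because ATF4 is largely set by translation, mRNA levels report on its targets more directly than on ATF4 itself.

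ATF4 and CHOP bind composite elements with the core TGATGNAA, where N is any base. Of the 38 genes, 32 had a promoter window in the RefSeq-derived table used here, which covers the 250 bases before and 50 bases after a transcription start, and 6 (NUPR1, PSPH, GPT2, PYCR1, SHMT2 and ALDH1L2) had none. On either strand the core was found in at least 1 window of 8 of these 32 genes (25.0%), against 2.77% of the 12030 genes of the mRNA-seq table with a window and 4.46% of all 27305 genes with one. The genes were chosen as known targets, so this share describes the list and gives no evidence that a site is in use. The 5 elements below lie before a RefSeq transcription start of ASNS, CHAC1 and JDP2, which were lower with doxorubicin in siNT cells, and of CEBPG and SLC1A5, which did not pass that test. They are printed in the direction of the gene, with the 8 bases of the core in capitals, and positions are on GRCh38.p14 from RefSeq. In CHAC1 the core reads on the opposite strand, so that its reverse complement is printed.
ASNS, chr7:97872458-97872487, minus strand: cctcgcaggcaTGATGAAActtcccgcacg
CHAC1, chr15:40953251-40953280, plus strand: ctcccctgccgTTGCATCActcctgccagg
JDP2, chr14:75427995-75428024, plus strand: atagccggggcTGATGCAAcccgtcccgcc
CEBPG, chr19:33374060-33374089, plus strand: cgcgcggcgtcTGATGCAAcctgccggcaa
SLC1A5, chr19:46784893-46784922, minus strand: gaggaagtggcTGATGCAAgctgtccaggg
The core began 68 bases before the RefSeq start of its window in ASNS, 209 in CHAC1, 16 in JDP2, 42 in CEBPG and 97 in SLC1A5. RefSeq gives several starts for some of these genes, and all 5 elements lie inside the gene as GENCODE release 44 draws it, downstream of its outermost start. The other genes with a match were SLC1A4, SLC3A2 and SLC7A1. Among the genes called lower with doxorubicin in siNT cells 31.2% of the 16 with a window held the core, and among the rest 18.8% of 16. A match of letters is not a binding site, and genes without one may be bound outside these windows.

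Library totals lay between 16759025 and 19302248 reads, and the medians of the vehicle groups were 18082509 (siNT) and 18092154 (siMLK4), those of the doxorubicin groups 17275064 (siNT) and 18901864 (siMLK4). Levels are given below as normalized reads, that is reads of a gene divided by the size factor of the library. Fold changes are on the deposited log2 scale, a variance-stabilized scale on which changes of genes with few reads come out smaller than the ratio of their reads. Calls required both an adjusted p under 0.01 (limma, Benjamini-Hochberg adjustment over all 17013 genes) and a log2 fold change beyond 0.75 in either direction, and errors of fold changes are standard errors. MAP3K21, the target of the siRNA pool, was measured at 553, 670 and 674 normalized reads in siNT vehicle, 758, 856 and 772 in siNT doxorubicin, 103, 94.7 and 88.7 in siMLK4 vehicle and 113, 138 and 94.4 in siMLK4 doxorubicin. Every siMLK4 library was below every siNT library, in accord with the labels, with log2 fold changes of -2.24 ± 0.12 with vehicle and -2.37 ± 0.12 with doxorubicin (adjusted p 9.7e-08 and 1.1e-07, limma, Benjamini-Hochberg).

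Before the comparisons, the vehicle libraries need a description, since they differed from each other on these genes more than on the rest of the transcriptome. The median SD of a member over the 3 siNT vehicle libraries was 0.58 on the deposited log2 scale, against 0.16 for all genes. It was 0.36 against 0.16 in siMLK4 vehicle, but only 0.18 against 0.13 in siNT doxorubicin and 0.20 against 0.13 in siMLK4 doxorubicin. siNT vehicle replicate 2 was the lowest of its group for 36 of the 38 members (94.7%, against 26% of all genes), and siMLK4 vehicle replicate 3 was the highest of its group for 31 (81.6%, against 42.0%). Ranks were also uneven in the doxorubicin groups, where the spread was smaller. siMLK4 doxorubicin 3 was the highest for 30 members (78.9%, against 40.8%) and siMLK4 doxorubicin 2 the lowest for 29 (76.3%, against 39.3%). siNT doxorubicin 3 was the highest for 25 (65.8%, against 33.7%). Measured from the siNT vehicle mean, the median member lay at 0.39, -0.58 and 0.22 in the siNT vehicle libraries and at -0.78, -0.82 and -0.25 in the siMLK4 vehicle libraries, so that siNT vehicle 2 and siMLK4 vehicle 3 stood between the other vehicle libraries of both siRNAs. The corresponding medians were -1.17, -1.09 and -0.88 in siNT doxorubicin and -0.84, -0.97 and -0.69 in siMLK4 doxorubicin, where the groups overlapped. The plot of the 38 members in each library shows these shifts. siNT vehicle 2 held 19239066 reads, the most of its group, and its 8 basal epithelial markers summed to 74800 normalized reads, between the 70800 and 76200 of replicates 1 and 3. In siMLK4 vehicle 3 there were 17402498 reads, the fewest of its group, its basal markers summed to 65900 against 70900 and 67400, and its 10 highest genes took 6.66% of reads against 5.15 and 5.51%. Whether depth, growth conditions or another property of these cultures had a part in the spread was not tested. Some counts and medians of the members are given below without siNT vehicle 2 or siMLK4 vehicle 3 as well, but not every one that moved. Both libraries were singled out by the values of the members themselves. Shifts of the members without them therefore follow in part from that choice and are not a test.

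**Figure D1:**
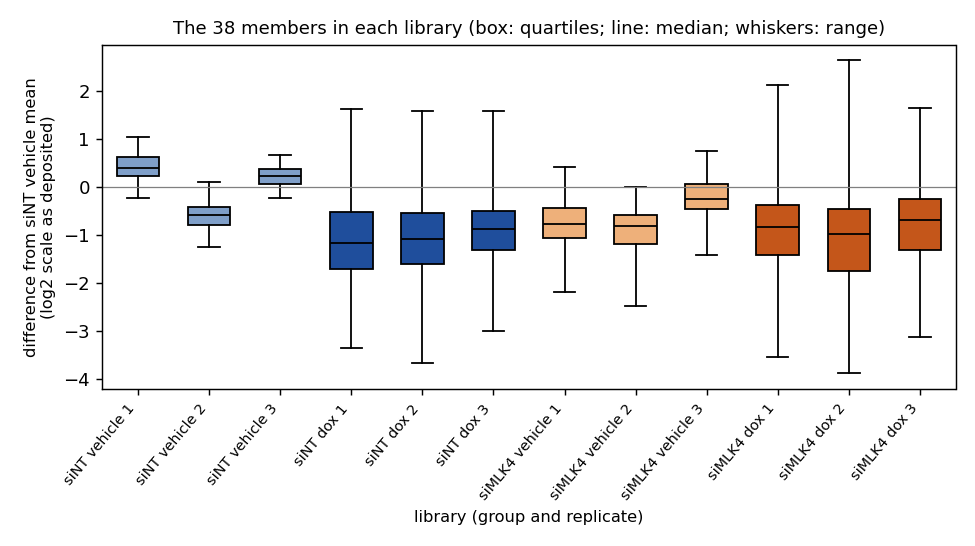
Difference of each of the 38 members from its siNT vehicle mean, on the deposited log2 scale, in each of the 12 libraries (box: quartiles, line: median, whiskers: range). The medians of siNT vehicle 2 (-0.58) and siMLK4 vehicle 3 (-0.25) lie apart from the other libraries of their groups, while the 6 doxorubicin libraries lie between -1.17 and -0.69.

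The 38 members together took 1.04, 0.614 and 0.978% of all reads in siNT vehicle and 0.487, 0.499 and 0.526% in siNT doxorubicin. In siMLK4 vehicle they took 0.579, 0.534 and 0.732%, and in siMLK4 doxorubicin 0.518, 0.468 and 0.567%. The siNT vehicle libraries were thus above all siNT doxorubicin libraries, while the siMLK4 groups overlapped. Per kilobase of the canonical transcript, ATF4 had the highest level of the list in siNT vehicle (8720 normalized reads per kb), followed by the amino acid transporter chains SLC3A2 (6380) and SLC7A5 (5230) and by DDIT4 (5000). At the other end were VLDLR (13.7), KLHL24 (21.0) and ASNS (25.1), the asparagine synthetase gene, which in these cells was thus one of the faintest members. In siNT doxorubicin the order changed, with SLC3A2 (3630), PPP1R15A (3060), SLC1A5 (3040) and ATF4 (3020) at the top and DDIT4 at 425 normalized reads per kb.

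With doxorubicin, most of the stress response genes were lower in siNT cells. Of the 38 members 22 were called lower (57.9%), where 10.6% of all genes were, and 2 were called higher, where 12.1% of all genes were. The median log2 fold change of the members was -1.08, against 0.00 over all genes, with a range from -3.35 to 1.59, and 32 of 38 values were negative. For 27 members (71.1%) the 3 libraries of one group lay wholly apart from the 3 of the other, which was so for 62.4% of all genes. The libraries are bulk RNA, so fewer cells of a kind and less RNA per cell cannot be told apart. Without siNT vehicle replicate 2, the lowest vehicle library, 27 members were called lower and the median was -1.34. With the replicate number as a block, 23 were called lower, SLC38A2 being the addition. With adjusted p under 0.05 and no threshold on the fold change 28 members were lower and 2 higher, where 27.7% and 29.6% of all genes were.

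ATF4 was measured at 16690, 8786 and 11670 normalized reads in siNT vehicle and at 4177, 3926 and 4739 with doxorubicin. All doxorubicin libraries were below all vehicle libraries, and the mean dropped to 34.6% of vehicle (log2 fold change -1.48 ± 0.25, adjusted p 0.00022, limma, Benjamini-Hochberg). Its gene lies on chromosome 22 (39519695 to 39522683, plus strand, GRCh38, GENCODE release 44). The other zipper factors did not move as one. ATF5, a relative of ATF4 that serves the mitochondrial stress response, rose from 427, 426 and 328 normalized reads to 1312, 1273 and 1267 (log2 fold change 1.59 ± 0.12, adjusted p 2e-07). DDIT3 (chromosome 12, 57516588 to 57521737, minus strand), which encodes the proapoptotic factor CHOP, had 1801, 670 and 1117 normalized reads with vehicle and 1708, 1553 and 1625 with doxorubicin, and the groups overlapped (0.53 ± 0.35, adjusted p 0.21). The dimer partners CEBPB and CEBPG were not called either, with log2 fold changes of 0.07 and -0.50. JDP2, a zipper repressor of AP-1 sites, fell (-1.30 ± 0.24), as did NUPR1, a small stress-induced chromatin protein. NUPR1 had 560, 76.8 and 289 normalized reads with vehicle and 25.8, 21.4 and 44.6 with doxorubicin (-2.00 ± 0.52, adjusted p 0.0045), and its call was lost when siNT vehicle 1 or 3 or siNT doxorubicin 1 or 2 was left out (range -2.63 to -1.48 over all 12 libraries left out in turn), and with limma-voom on the recovered reads. Of 7 transcription factors, 1 was thus called higher (14.3%) and 3 lower (42.9%), beside the 12.1% and 10.6% of all genes.

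**Figure D2:**
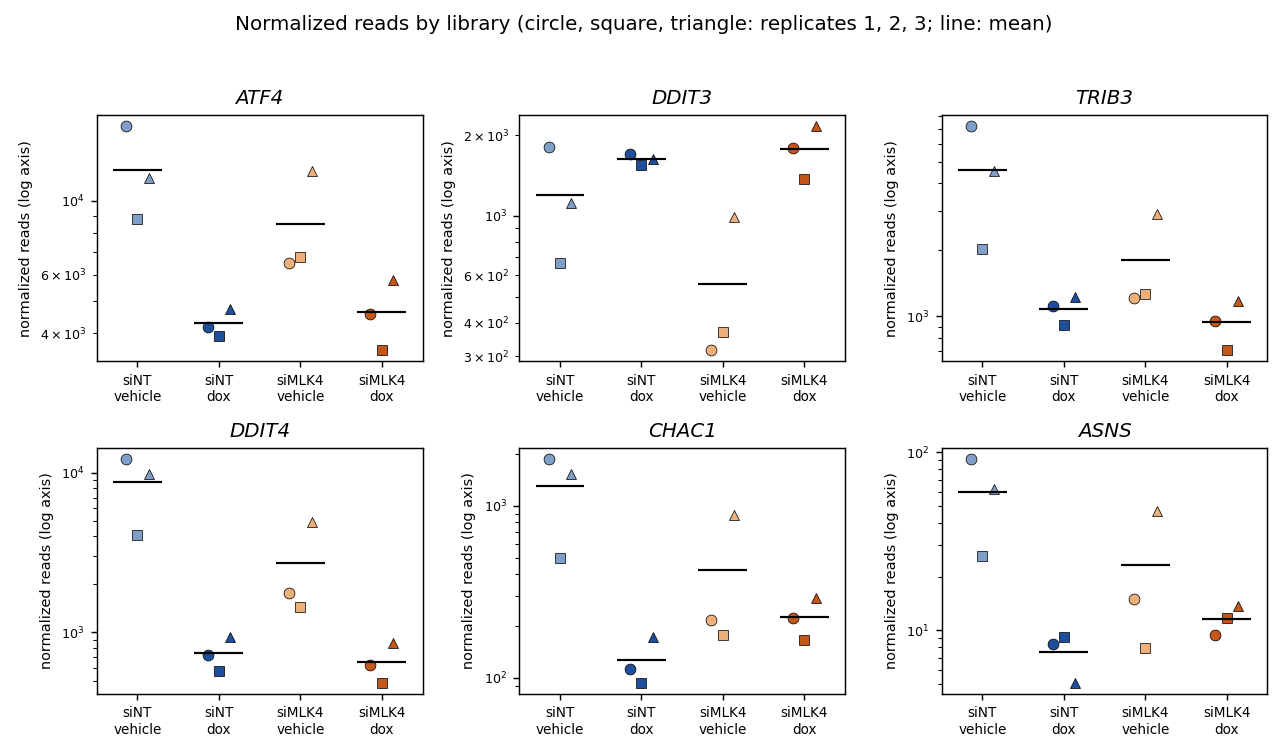
Normalized reads (log axis) of ATF4, DDIT3, TRIB3, DDIT4, CHAC1 and ASNS in each library of the 4 groups, with circle, square and triangle for replicates 1, 2 and 3 and a line for the group mean. In siNT cells 5 of the 6 genes were lower in every doxorubicin library than in any vehicle library, DDIT3 being the exception, and siNT vehicle 2 is the lowest vehicle library in all 6 siNT panels.

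Among the feedback and signalling genes were the largest decreases of the list. DDIT4 (chromosome 10, 72273919 to 72276036, plus strand), an inhibitor of the growth kinase complex mTORC1, had 12220, 4061 and 9876 normalized reads with vehicle and 722, 572 and 932 with doxorubicin. No library overlapped, and the mean with doxorubicin was 8.51% of that with vehicle (log2 fold change -3.35 ± 0.42, adjusted p 1.5e-05, limma, Benjamini-Hochberg). CHAC1 (chromosome 15, 40952962 to 40956512, plus strand), whose product degrades glutathione, went from 1872, 494 and 1529 to 112, 93.7 and 173 normalized reads (-2.78 ± 0.49, adjusted p 0.00024), again without overlap. TRIB3 (chromosome 20, 362835 to 397559, plus strand), a pseudokinase that is itself induced by ATF4 and CHOP and restrains them, went from 7215, 2024 and 4535 to 1117, 914 and 1221 (-1.86 ± 0.38, adjusted p 0.00087). Of the 7 feedback genes these 3 were called lower (42.9%, against 10.6% of all genes) and 1 higher (14.3%, near the 12.1% of all genes). The one in the other direction was KLHL24, an adaptor of a cullin ubiquitin ligase, which rose from 153, 102 and 208 to 545, 531 and 382 normalized reads (1.42 ± 0.25, adjusted p 0.00023). PPP1R15A, the phosphatase subunit that reverses eIF2α phosphorylation, was not called, at 9778, 4206 and 5999 normalized reads with vehicle and 7106, 7935 and 6541 with doxorubicin (0.19 ± 0.24, adjusted p 0.51). SESN2, another mTORC1 inhibitor, and NIBAN1 were not called (-0.69 and -0.48).

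Of the 9 genes of amino acid synthesis 8 were called lower (88.9%, against 10.6% of all genes) and none higher, with a median log2 fold change of -1.31. ASNS (chromosome 7, 97851677 to 97872542, minus strand) had 91.6, 25.95 and 61.7 normalized reads with vehicle and 8.31, 9.16 and 5.07 with doxorubicin. The groups did not overlap and the mean was 12.6% of vehicle, while the log2 fold change on the deposited scale, which shrinks genes with so few reads, was -1.17 ± 0.24 (adjusted p 0.001, limma, Benjamini-Hochberg). PYCR1, the last enzyme of proline synthesis, showed a tight decrease from 3183, 2724 and 3129 to 723, 624 and 960 normalized reads (-1.92 ± 0.16, adjusted p 3.8e-07), and ALDH18A1, the first enzyme of that route, went from 3697, 3964 and 3779 to 1292, 1595 and 1653 (-1.31 ± 0.12). All 3 genes of serine synthesis, PHGDH, PSAT1 and PSPH, were called lower (-1.12, -1.66 and -1.81), as were GPT2, which makes alanine, and CBS, which starts the conversion of homocysteine to cysteine. CTH, the enzyme after CBS, was the member not called (-0.53). In the mitochondrial one-carbon route SHMT2 and ALDH1L2 were called lower (-0.95 and -1.07), and MTHFD2 and the gluconeogenic enzyme PCK2 were not (-0.67 and -0.34). The ALDH1L2 call was lost without siNT vehicle 3, where its log2 fold change was -0.74, and that of SHMT2 when reads were scaled by library totals.

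Of the 7 amino acid transporters 4 were called lower (57.1%, against 10.6% of all genes). SLC7A5, the large neutral amino acid transporter and an abundant transcript, went from 23590, 20570 and 27280 to 6715, 6835 and 7263 normalized reads (-1.76 ± 0.12, adjusted p 8.8e-08, limma, Benjamini-Hochberg). Its partner chain SLC3A2 (-0.78), the arginine and lysine transporter SLC7A1 (-1.21) and the glycine transporter SLC6A9 (-1.09) were the others. The SLC3A2 call did not hold without siNT vehicle 1 (-0.57), and that of SLC6A9 was lost without siNT vehicle 1 or 3 or siNT doxorubicin 1 or 2 (-0.85 at the weakest). Scaling by library totals ended both calls, and upper-quartile scaling that of SLC3A2. SLC1A5, SLC1A4 and SLC38A2 were not called (-0.50, 0.08 and -0.76). Among the remaining targets TUBE1, which encodes epsilon tubulin, went from 578, 280 and 591 to 82.1, 67.2 and 130 normalized reads (-1.88 ± 0.25, adjusted p 2.1e-05), and XPOT, the exporter of tRNA from the nucleus, from 7256, 6937 and 9601 to 2578, 2961 and 3714 (-1.35 ± 0.16, adjusted p 7.5e-06). The secreted glycoprotein gene STC2 and the lipoprotein receptor gene VLDLR were not called (-0.97 and -0.59).

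In siMLK4 cells fewer members were called with doxorubicin, and the difference between the counts was not tested. Of 38, 5 were called lower (13.2%), where 10.6% of all genes were, and 4 were called higher (10.5%), where 12.6% were, so both shares were near the background. The median log2 fold change was -0.37, against 0.02 over all genes, with a range from -1.78 to 1.85 and 23 negative values. For 21 members (55.3%) the groups did not overlap, against 63.8% of all genes. The median moved to -0.18 without siMLK4 vehicle 3. With adjusted p under 0.05 and no threshold on the fold change, 14 members were lower and 6 higher, where 27.7% and 30.2% of all genes were. Together these were 20 members (52.6%, against 57.9% of all genes). The total was 10 (26.3%, against 49.3%) without siMLK4 doxorubicin 2 and 16 (42.1%, against 56.4%) without siMLK4 vehicle 3. It was 25 (65.8%) without siNT vehicle 2, against 56.9% of all genes, and with only the groups compared, against 56.3%.

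The 5 members called lower in siMLK4 cells, DDIT4, ALDH18A1, SLC7A5, PYCR1 and XPOT, were also called lower in siNT cells. DDIT4 had 1767, 1436 and 4923 normalized reads with vehicle and 626, 485 and 855 with doxorubicin (-1.78 ± 0.42, adjusted p 0.0024, limma, Benjamini-Hochberg). The groups did not overlap, but without siMLK4 doxorubicin 2 the call was lost (range over libraries left out -2.12 to -1.25). ALDH18A1 went from 2800, 2824 and 2413 to 1015, 922 and 1106 (-1.36 ± 0.12), close to its value in siNT cells. SLC7A5 went from 18760, 16950 and 16700 to 7730, 6757 and 7919 (-1.22 ± 0.12), PYCR1 from 1550, 1455 and 1944 to 776, 694 and 935 (-0.99 ± 0.16), and XPOT from 4644, 4107 and 4030 to 2207, 1885 and 2525 (-0.94 ± 0.16). In each of these 4 the libraries of the groups lay apart.

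The members called higher were KLHL24, ATF5, DDIT3 and PPP1R15A. KLHL24 and ATF5 were called higher with both siRNAs. In siMLK4 cells KLHL24 rose from 214, 142 and 235 to 823, 1193 and 573 normalized reads (1.85 ± 0.25, adjusted p 2.3e-05, limma, Benjamini-Hochberg), and ATF5 from 278, 340 and 293 to 1171, 996 and 1224 (1.73 ± 0.12, adjusted p 1.1e-07). DDIT3 rose from 317, 370 and 987 normalized reads with vehicle to 1786, 1376 and 2159 with doxorubicin (1.72 ± 0.35, adjusted p 0.00078). Its doxorubicin levels overlapped those of siNT cells, while its siMLK4 vehicle replicates 1 and 2 were below every siNT library. PPP1R15A went from 2078, 2720 and 3393 to 4889, 4615 and 5261 (0.86 ± 0.24, adjusted p 0.0062), and its call was lost when siMLK4 vehicle 1 or 2 or any siMLK4 doxorubicin library was left out (range 0.68 to 1.03), and with the replicate number as a block.

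ATF4 was not called in siMLK4 cells, with 6489, 6760 and 12240 normalized reads with vehicle and 4556, 3566 and 5771 with doxorubicin (-0.83 ± 0.25, adjusted p 0.012, limma, Benjamini-Hochberg), although every doxorubicin library was below every vehicle library. It passed when siMLK4 vehicle 1, siMLK4 doxorubicin 3, siNT vehicle 1 or siNT vehicle 2 was left out, and with the replicate number as a block, which also called NUPR1 and PSPH lower, although these libraries share only a number. CHAC1 had 216, 176 and 882 normalized reads with vehicle and 222, 166 and 292 with doxorubicin (-0.49 ± 0.49, adjusted p 0.40). The groups overlapped, and replicate 3 was the only vehicle library above the doxorubicin range. Without it the log2 fold change of CHAC1 was 0.15. TRIB3 had 1206, 1260 and 2911 with vehicle and 950, 706 and 1172 with doxorubicin (-0.80 ± 0.38, adjusted p 0.087), and -0.40 without replicate 3. ASNS had 15.0, 7.97 and 46.5 with vehicle and 9.33, 11.7 and 13.6 with doxorubicin (-0.28 ± 0.24, adjusted p 0.35), with overlap, and 0.01 without replicate 3.

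**Figure D3:**
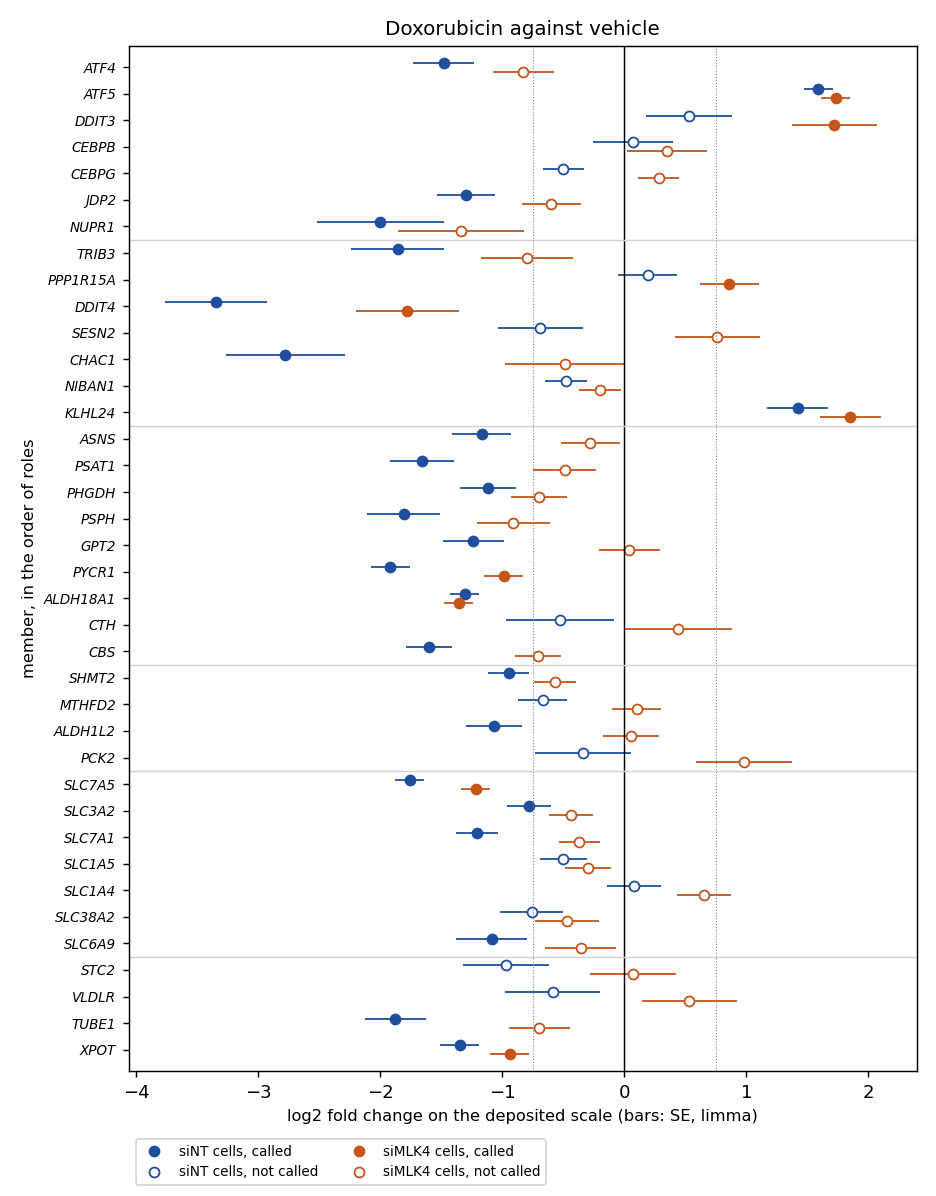
Log2 fold change of each member with doxorubicin against vehicle, on the deposited scale with its standard error from limma, in siNT cells (blue) and siMLK4 cells (orange), filled where called, with dotted lines at -0.75 and 0.75. In siNT cells 22 members were called lower and 2 higher, in siMLK4 cells 5 and 4, and 37 of 38 siMLK4 values lie to the right of the siNT value.

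Whether the response to doxorubicin differed between the siRNAs is the question of the interaction, the log2 fold change in siMLK4 cells minus that in siNT cells. No member was called, where 0.0999% of all genes were called higher and 0.176% lower, and none had an adjusted p under 0.05, where 0.576% of all genes were higher and 0.623% lower. By unadjusted p under 0.05 there were 16 members with limma (42.1%), where 14.5% of all genes were. The lowest adjusted p was 0.060, for PYCR1 (0.92 ± 0.22). The median over the members was 0.77, against 0.01 over all genes, 37 values were positive, and ALDH18A1 was the exception at -0.05. The largest values were those of CHAC1 (2.28 ± 0.69, adjusted p 0.12) and DDIT4 (1.56 ± 0.60, adjusted p 0.23). The median was 1.04 without siNT vehicle 2, where 10 members (26.3%, against 1.11% of all genes) had an adjusted p under 0.05 and GPT2 was called higher (1.65, adjusted p 0.0065, limma, Benjamini-Hochberg). It was 0.94 without siMLK4 vehicle 3, where 5 members (13.2%, against 1.23% of all genes) had an adjusted p under 0.05, the lowest being that of CHAC1 (2.93, adjusted p 0.019). Since both libraries had been singled out by the members' own values, the higher medians and counts without them are not evidence of a difference. The shares of all genes are no like comparison there. Leaving out each of the other 10 libraries in turn gave medians of 0.57 to 0.84 and 0 to 1 such member. The replicate block gave 3 such members (7.89%, against 1.39% of all genes). Without a block, the fit of all 12 libraries did not establish a difference between the siRNAs for any single member. This includes the 17 members called lower in siNT cells and not called in siMLK4 cells.

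**Figure D4:**
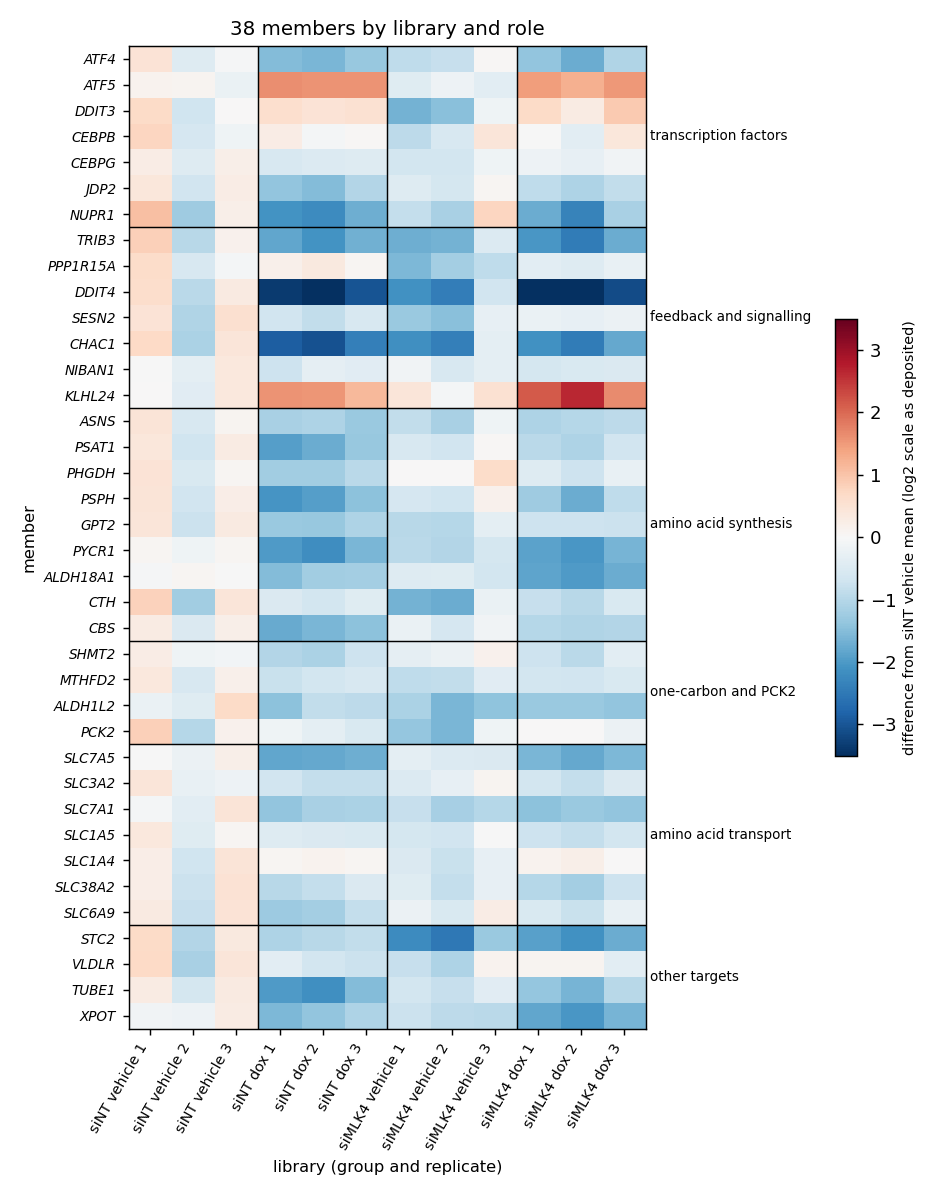
Difference of each member from its siNT vehicle mean, on the deposited log2 scale (blue lower, red higher), for the 12 libraries in columns and the 38 members in rows, grouped by role, with colours saturated at the ends of the scale. The rows of ATF5 and KLHL24 are red in all 6 doxorubicin libraries, DDIT4 has the darkest blue, and within the vehicle groups siNT vehicle 2 and siMLK4 vehicle 3 differ from the other replicates along nearly the whole column.

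The knock-down itself was compared first with vehicle. This comparison uses the same siNT vehicle libraries as the doxorubicin comparison in siNT cells, so the 2 are not independent. No member was called higher, where 2.51% of all genes were, and 7 of 38 were called lower (18.4%), where 3.14% were. The median was -0.54, against 0.01 over all genes, with a range from -2.00 to 0.29, and 36 values were negative. In 8 members (21.1%) the groups did not overlap, fewer than the 37.8% of all genes. The count called lower depended on single libraries. It was 18, with a median of -0.90, without siNT vehicle 2, where 3.38% of all genes were called lower. It was 15, with a median of -0.79, without siMLK4 vehicle 3, where 3.16% of all genes were. Both libraries had been singled out by the members' own values. Without siNT vehicle 3 the calls of DDIT4 and XPOT were lost. In a fit of the vehicle libraries alone, where the spread is estimated from 6 libraries, PYCR1 was the only call. Scaling by library totals ended the calls of DDIT4, PYCR1 and XPOT, and upper-quartile scaling that of DDIT4. With adjusted p under 0.05 and no threshold on the fold change 16 members were lower and none higher, where 13.0% and 12.7% of all genes were.

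The largest difference was that of STC2, with 8237, 2536 and 6602 normalized reads in siNT vehicle and 1085, 876 and 2060 in siMLK4 vehicle (-2.00 ± 0.35, adjusted p 0.00093, limma, Benjamini-Hochberg). The groups lay apart, and siMLK4 cells held on average 23.1% of the siNT level. ALDH1L2, which oxidizes formyl groups in mitochondria, had 1012, 873 and 1915 against 526, 360 and 414 (-1.38 ± 0.23, adjusted p 0.00075), and PPP1R15A had 9778, 4206 and 5999 against 2078, 2720 and 3393 (-1.21 ± 0.24, adjusted p 0.002). SLC7A1 had 8173, 6634 and 11830 against 4929, 3801 and 4262 (-0.99 ± 0.17, adjusted p 0.00086). Libraries of these 3 did not overlap either, and their calls held whichever library was left out, as did those of STC2 and PYCR1 (-0.86). The call of XPOT (-0.88) was lost without siNT vehicle 3 (-0.73). DDIT4, at 12220, 4061 and 9876 against 1767, 1436 and 4923 normalized reads, overlapped because siMLK4 vehicle 3 was above siNT vehicle 2 (-1.74 ± 0.42, adjusted p 0.0078), and its call held in only 4 of the 12 fits that leave out a library (range -2.27 to -1.40). The levels of ATF4 (-0.55, adjusted p 0.13), DDIT3 (-1.09, adjusted p 0.033), TRIB3 (-1.27, adjusted p 0.024), CHAC1 (-1.62, adjusted p 0.024) and ASNS (-0.72, adjusted p 0.044) did not pass the call, and in each of them siMLK4 vehicle 3 lay above siNT vehicle 2. Leaving out either of these libraries called TRIB3 (-1.76 without siNT vehicle 2 and -1.67 without siMLK4 vehicle 3), CHAC1 (-2.18 and -2.26) and ASNS lower, and DDIT3 was called without siMLK4 vehicle 3 (-1.56).

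With doxorubicin in both groups no member was called in either direction between siMLK4 and siNT cells, where 2.66% of all genes were called higher and 2.93% lower (limma). The median log2 fold change was 0.10, against 0.02 over all genes, the range was -0.96 to 0.78, and 24 values were positive. By unadjusted p under 0.05 there were 9 members in the unblocked fit of all 12 libraries (23.7%), fewer than the 37.1% of all genes. With adjusted p under 0.05 and no fold change threshold 3 were higher (PSAT1 0.78, KLHL24 0.72 and CBS 0.58) and 2 lower (ALDH18A1 -0.55 and XPOT -0.47), where 12.7% and 12.1% of all genes were. Together these were 5 members (13.2%, against 24.8% of all genes). Leaving out siMLK4 doxorubicin 1 or 2 or siNT doxorubicin 2 gave 1 (2.63%, against 15.1, 17.4 and 17.8%). The replicate block gave 8 (21.1%, against 24.7%). With only the groups compared there were 14 (36.8%), more than the 29.9% of all genes. Groups did not overlap for 16 members (42.1%), against 43.9% of all genes. DDIT4 had 722, 572 and 932 normalized reads in siNT and 626, 485 and 855 in siMLK4 cells, and ATF4 4177, 3926 and 4739 against 4556, 3566 and 5771, with overlap in both. STC2 kept the lowest value, at 2422, 2610 and 2840 against 1335, 1147 and 1504 (-0.96 ± 0.35, adjusted p 0.059), without overlap.

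**Figure D5:**
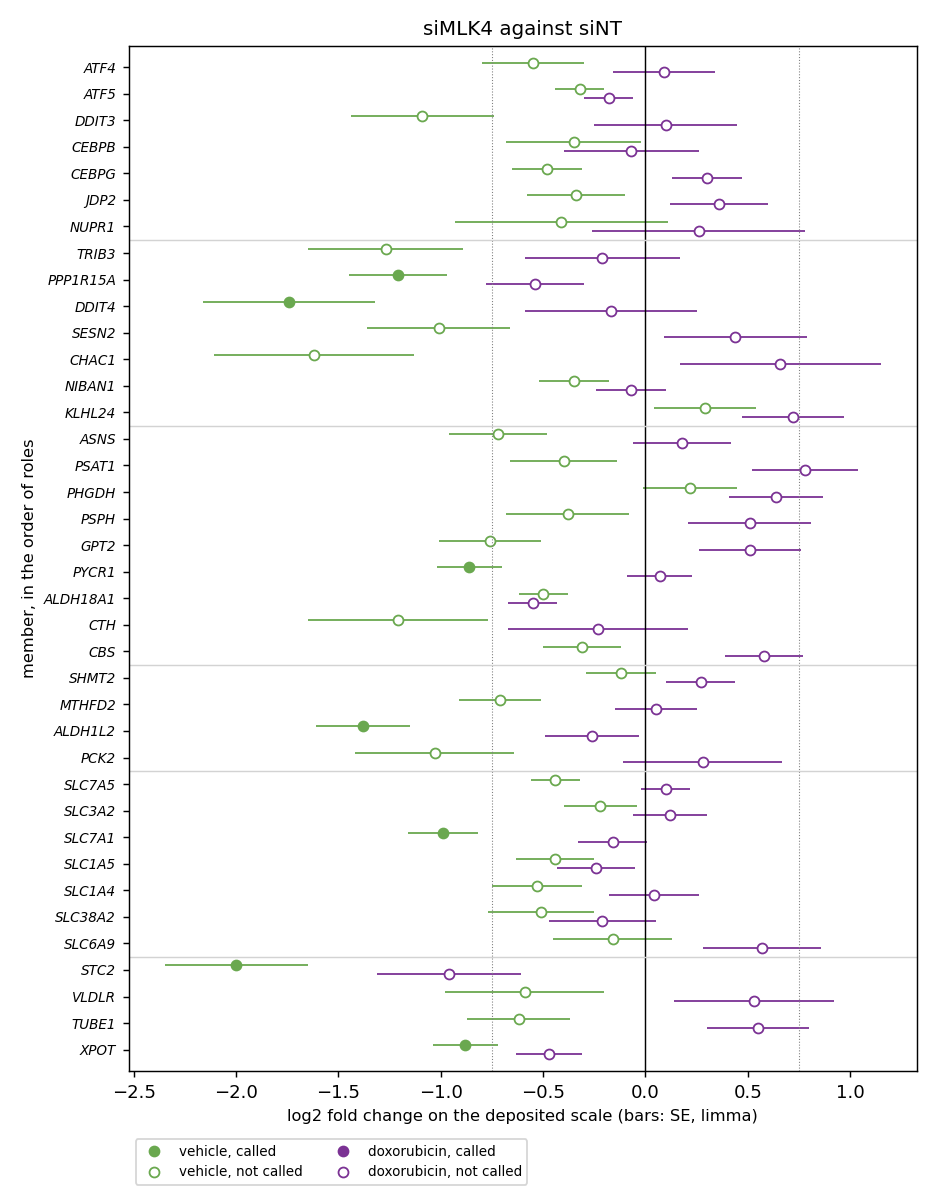
Log2 fold change of each member in siMLK4 against siNT cells, on the deposited scale with its standard error from limma, with vehicle (green) and with doxorubicin (purple), filled where called, with dotted lines at -0.75 and 0.75. With vehicle 36 of 38 values are below 0 and 7 are called, and with doxorubicin the values lie on both sides of 0 and none is called.

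The genes around ATF4 were taken from lists of the pathway outside the 38 members. Of the 4 eIF2α kinases none was called in any comparison by limma. EIF2AK2, the sensor of double-stranded RNA, and EIF2AK4, the sensor of uncharged tRNA, had log2 fold changes with doxorubicin of -0.61 and -0.43 in siNT cells and -0.52 and -0.50 in siMLK4 cells, with adjusted p of 0.0027, 0.0026, 0.0071 and 0.00083 (limma, Benjamini-Hochberg) but sizes under the threshold. Without siNT vehicle 1 EIF2AK2 passed it in siNT cells. The heme sensor EIF2AK1 was at 0.29 and 0.36 and the endoplasmic reticulum sensor EIF2AK3 at -0.07 and 0.07. Among 16 genes for eIF2, its exchange factor and their regulators, doxorubicin gave 1 call higher (6.25%) and 3 lower (18.8%) with either siRNA, on the same genes, where 12.1% and 10.6% of all genes were called in siNT and 12.6% and 10.6% in siMLK4 cells. EIF2B2, a subunit of the exchange factor, was higher (1.05 in siNT and 1.08 in siMLK4 cells). Its fellow subunit gene EIF2B3 (-1.31 and -1.20), IMPACT, an inhibitor of EIF2AK4 (-1.38 and -1.23), and DELE1, which carries mitochondrial stress to EIF2AK1 (-0.90 and -1.08), were lower, the DELE1 call in siNT cells being lost with library totals. No gene of this list was called between the siRNAs by limma, with vehicle or with doxorubicin. Of all genes 2.51% and 2.66% were called higher and 3.14% and 2.93% lower. At an adjusted p under 0.05, 4 of 16 were lower with either treatment, where 13.0% and 12.1% of all genes were.

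Of 12 further targets of ATF4 or CHOP 11 were measured, FGF21 being absent from the table. In siNT cells doxorubicin gave 1 call higher (9.09%, near the 12.1% of all genes) and 4 lower (36.4%, against 10.6%). ATF3, a stress-induced zipper factor, was higher, with log2 fold changes of 2.16 ± 0.32 in siNT and 3.02 ± 0.32 in siMLK4 cells. The peptide hormone gene ADM2 (-1.99), VEGFA (-1.75), the cystine transporter gene SLC7A11 (-1.21) and EIF4EBP1, a translation repressor (-1.09), were lower in siNT cells. In siMLK4 cells ATF3 and MAP1LC3B, an autophagy gene (1.36), were higher and SLC7A11 was lower (-0.76), 18.2% and 9.09% of the list against 12.6% and 10.6% of all genes. With vehicle VEGFA (-2.17) and GADD45A (-1.15) were lower in siMLK4 than in siNT cells (18.2%, against 3.14% of all genes). With doxorubicin no gene of this list was called between the siRNAs by limma, where 2.66% of all genes were higher and 2.93% lower. At an adjusted p under 0.05, 5 of 11 were lower with vehicle and 2 with doxorubicin, where 13.0% and 12.1% of all genes were. Other scalings between libraries, or leaving out single libraries of the groups compared, ended the calls of EIF4EBP1 in siNT cells and of SLC7A11 in siMLK4 cells, and that of GADD45A was lost without siMLK4 vehicle 1 or 2 and with only the groups compared.

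Among 17 genes of the ATF6 and XBP1 arms of the unfolded protein response, 1 was called higher (5.88%) and 5 lower (29.4%) with doxorubicin in siNT cells and 2 higher (11.8%) and 6 lower (35.3%) in siMLK4 cells. Of all genes 12.1% were higher and 10.6% lower in siNT cells and 12.6% and 10.6% in siMLK4 cells. The chaperone genes HSPA5 (-1.57 in siNT and -1.61 in siMLK4 cells) and CALR (-1.45 and -1.49) led the decreases, with HERPUD1 (-1.39 and -0.88) and SDF2L1 (-1.08 and -1.12), and DNAJB9 was higher (1.01 and 1.03). In siMLK4 cells the sensor gene ERN1 was also higher with doxorubicin (0.82), a call lost without siMLK4 vehicle 2 or siMLK4 doxorubicin 2. The HERPUD1 call in these cells was lost without siMLK4 vehicle 3 or siMLK4 doxorubicin 2 and with library totals. Between the siRNAs EDEM1, which sends misfolded glycoproteins to degradation, was lower in siMLK4 cells with vehicle (-1.63) and with doxorubicin (-1.13), ERN1 with vehicle (-1.17) and HSP90B1 with doxorubicin (-0.82), which makes 11.8% of the list under each treatment, against 3.14% and 2.93% of all genes. The last call named was lost with library totals, and that of ERN1 with only the groups compared. Of the 20 cytosolic aminoacyl-tRNA synthetase genes 8 were called lower with doxorubicin in siNT cells (40.0%, against 10.6% of all genes) and 3 in siMLK4 cells (15.0%, near the 10.6% of all genes), none higher in either. EPRS1 (-1.93 and -1.51), GARS1 (-1.47 and -0.96), FARSB (-1.43 and -1.13) and AARS1 (-1.24 in siNT cells, -0.58 and not called in siMLK4 cells) were the largest in siNT cells. The GARS1 call in siMLK4 cells was lost without siMLK4 vehicle 3 or siMLK4 doxorubicin 2. NARS1 was the only synthetase gene called between the siRNAs, lower in siMLK4 cells with vehicle (-0.78, 5.0% of the list against 3.14% of all genes). This call was lost with library totals or upper-quartile scaling and without siNT vehicle 1 or 3. Its call with doxorubicin in siNT cells was lost with the same scalings and without siNT vehicle 1 or siNT doxorubicin 1. Between the siRNAs with vehicle 19 of the 20 synthetase values were negative, with a median of -0.43. At an adjusted p under 0.05 by limma, 10 were lower with vehicle and 4 with doxorubicin, and 1 was higher in each. Of all genes 13.0% and 12.1% were lower and 12.7% higher in each.

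The libraries carried epithelial transcripts. The 8 markers called basal here include EPCAM and CDH1, which are general epithelial genes. No list of luminal markers was set beside them, so their sums do not settle a basal identity. The 8 basal markers were all measured, summing to 70800, 74800 and 76200 normalized reads in siNT vehicle, 39200, 41100 and 43800 in siNT doxorubicin, 70900, 67400 and 65900 in siMLK4 vehicle and 28900, 27900 and 31500 in siMLK4 doxorubicin. KRT5 was the most abundant of them with vehicle and EPCAM with doxorubicin, and 5 of the 8 were called lower with doxorubicin with either siRNA (62.5%, against 10.6% of all genes). Basal keratins also differed with the knock-down. KRT14 (-1.05 with vehicle and -1.26 with doxorubicin) and KRT6A (-1.19 and -1.03) were called lower in siMLK4 cells under both treatments, which makes 25.0% of the markers with vehicle, against 3.14% of all genes. KRT17 was called lower as well with doxorubicin (-0.82), for 37.5% against 2.93% of all genes, a call lost with library totals and without siMLK4 doxorubicin 1 or 2 or siNT doxorubicin 3. KRT5 went the other way with vehicle (0.64, adjusted p 0.0074, limma, Benjamini-Hochberg), with the libraries apart but under the fold change threshold, and 3 of the 8 values were positive. Epithelial markers thus moved beside the stress response genes in these comparisons, and their part in the results was not tested. Triple-negative tumours lack the receptors encoded by ESR1 and PGR, and do not amplify or overexpress ERBB2. PGR had 0 reads in all 6 vehicle libraries and was called higher with doxorubicin, at 18.5, 12.2 and 9.12 normalized reads in siNT and 11.9, 15.8 and 7.26 in siMLK4 cells. ESR1 had group means from 46.5 to 117 normalized reads and was called lower with doxorubicin in siMLK4 cells (-0.78), a call lost with library totals and without siMLK4 vehicle 1 or 2 or siMLK4 doxorubicin 1, and ERBB2 had means from 1459 to 1893 and no call. Of 5 fibroblast markers 3 were measured (COL1A2 and DCN were not), with sums of 390 to 474 normalized reads in siNT vehicle, 282 to 306 in siNT doxorubicin, 667 to 834 in siMLK4 vehicle and 362 to 503 in siMLK4 doxorubicin, mostly of COL1A1. COL1A1 was called higher in siMLK4 cells with vehicle (0.78), except without siNT vehicle 3 or siMLK4 vehicle 3, and LUM was called lower with doxorubicin (-1.56 in siNT and -2.05 in siMLK4 cells). Of 4 endothelial markers only VWF was measured, at 13.5 to 67.1 normalized reads, without a call. The leukocyte markers PTPRC and CD14 summed to 12.9 to 19.1 normalized reads in siNT vehicle, 38.7 to 52.6 in siNT doxorubicin, 19.0 to 36.8 in siMLK4 vehicle and 49.2 to 64.2 in siMLK4 doxorubicin, and PTPRC was called higher with doxorubicin in siMLK4 cells (0.84), except without siMLK4 vehicle 1. The part of these markers in the results was not tested either. The defining markers PECAM1, CDH5, KDR, CD3E and CD68 were not among the genes of the table.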

How the data were processed

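Total RNA of HCC1806 cells was used for poly(A) mRNA libraries and sequenced in read pairs. According to the submitters' processing notes the tools were Trimmomatic 0.39, HISAT2, HTSeq 0.6.0 and DESeq2 1.26.0. Those notes name hg19 as the genome, while the supplementary methods name GRCh38, removal of optical duplicates and reverse-stranded counting. The table has no coordinates, so gene positions come from GENCODE release 44 by Ensembl ID. The authors deposited log2-scale values, which have the form of variance-stabilized counts scaled by a size factor per library. This was read from the values, since no source used here describes it. Inverting the transformation gave whole reads, within 0.05, for 100% of the values of every library, and these reads were used for levels and alternatives.

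The deposited values were fitted in R 4.3.3 by limma 3.58.1, in 1 linear model of the 4 group means over all 12 libraries, with moderated variances that follow a trend with mean level, 2-sided tests and Benjamini-Hochberg adjustment over 17013 genes. The contrasts were doxorubicin against vehicle with each siRNA, siMLK4 against siNT under each treatment, and their interaction. The fit was tested on simulated data before use. P-values measure the spread between these libraries, which may be technical. Replicates of a group differed beyond counting noise. The reads carry no molecular identifiers.

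The 38 members, the lists of other genes and the tests were chosen with earlier results of these data known. Values in every library are given for ATF4, DDIT3, DDIT4, CHAC1, TRIB3 and ASNS, for up to 5 members with the largest called change in each direction and contrast, and for MAP3K21. Other members appear by role with fold changes, and genes of the other lists where they are eIF2α kinases or called (up to 4 per direction, list and contrast). A few members beyond this rule (PPP1R15A in siNT cells, and the single members named where a call was gained or lost) were named after their values were seen. Transcript lengths are those of Ensembl canonical transcripts. Equally numbered libraries deviated together over all genes, with correlations of 0.46, 0.105 and 0.205 between siNT vehicle and siNT doxorubicin and of 0.19, 0.516 and 0.559 between the doxorubicin groups. In the remaining comparisons at least 1 pair fell below 0.1, the lowest at -0.723. This pairing was read from the values alone. Alternatives were other scalings (library totals, upper quartile), a minimum of 10 reads in every library, log2(normalized reads + 1), limma-voom on the recovered reads, no variance trend, only the groups compared, a replicate block, a looser threshold, and each library left out in turn.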

Additional observations from a re-analysis of the deposited data

Results flagged for a closer look

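In the unblocked fit of all 12 libraries 2 listed genes, VEGFA and KRT5, passed the test of the interaction at an adjusted p under 0.05. VEGFA was 1 of the 68 measured pathway genes outside the members. KRT5 was 1 of the 8 basal markers, and no gene of the other marker lists passed. Of all genes 1.2% passed, so the count is no result about the lists. In that fit the response to doxorubicin differed between the siRNAs for both genes, and neither was a member. The test was passed in only 9 of 19 alternatives for VEGFA and 7 of 19 for KRT5, so a difference was not established. VEGFA, an angiogenic factor listed among further ATF4 targets, had 5956, 2282 and 5321 normalized reads in siNT vehicle, 1253, 1102 and 1259 in siNT doxorubicin, 802, 764 and 1128 in siMLK4 vehicle and 856, 855 and 1002 in siMLK4 doxorubicin. Its log2 fold change with doxorubicin was -1.75 in siNT and 0.03 in siMLK4 cells, and the difference was 1.78 ± 0.37 (adjusted p 0.033, limma, Benjamini-Hochberg). Over 19 alternatives the difference ran from 1.52 to 2.20, and its adjusted p, from 0.00068 to 0.089, stayed under 0.05 in 9 of them. The 10 others each left out 1 library, any except siNT vehicle 2 and siMLK4 vehicle 3.

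KRT5, a basal keratin from the marker list, had 17190, 22490 and 22960 normalized reads in siNT vehicle, 7659, 8316 and 10480 in siNT doxorubicin, 33620, 31750 and 31410 in siMLK4 vehicle and 6996, 5954 and 8155 in siMLK4 doxorubicin. The decrease was larger in siMLK4 cells by -0.96 on the log2 scale (adjusted p 0.047, limma, Benjamini-Hochberg), with a range of -1.07 to -0.83 over 19 alternatives and an adjusted p under 0.05 in 7 of them (0.029 to 0.13).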

How the results depend on the processing

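No fold change of a member or of another listed gene reversed its direction as a call under any alternative, and the counts of members called in each contrast moved by more than 1.5 times in the following cases. Members called lower with doxorubicin in siMLK4 cells went from 5 to 8 with the replicate block, adding ATF4, NUPR1 and PSPH, and to 14 with adjusted p under 0.05 and no fold change threshold. Members called lower in siMLK4 against siNT cells with vehicle went from 7 to 4 with library totals, 1 with only the groups compared and 16 with the looser threshold, and from 5 to 18 over the libraries left out in turn, the highest being without siNT vehicle 2 (18) and siMLK4 vehicle 3 (15). The replicate block gave 9 there, adding TRIB3 and CHAC1, but these libraries share only a number. Between siMLK4 and siNT cells with doxorubicin the counts of 0 became 1 higher with log2(normalized reads + 1), namely CBS, 1 higher and 1 lower (PSAT1 and STC2) with only the groups compared, and 3 higher and 2 lower with the looser threshold. For the interaction the libraries left out in turn gave 0 to 1 member higher. With doxorubicin in siNT cells the members called lower stayed between 19 and 28, and apart from SLC38A2 the replicate block changed no call there or between the doxorubicin groups.

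Scaling by library totals moved the median of all genes by 0.176 with doxorubicin in siNT cells, 0.143 in siMLK4 cells and 0.096 with the knock-down in vehicle, and it turned the shares of all genes called higher and lower with doxorubicin in siNT cells from 12.1% and 10.6% into 16.8% and 6.43%. The member counts lower were 19 under that scaling. With 3 libraries a group the exact permutation test of a single gene cannot go below p = 0.10, so all tests rest on the spread shared over genes. Low members such as ASNS, with fewer than 10 normalized reads in several libraries, are limited by counting, and their fold changes by the transformation. The causes of these changes were not tested.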
